A study of Mus musculus with 6 samples.

Results

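The genes described here are 42 that make, supply and sulfate glycosaminoglycans, out of 32286 genes in the feature table, and they were taken by gene symbol in all 6 libraries of a single-cell series on digits in a dish (DID) cultures. A DID culture grows from dissociated distal forelimb mesenchyme of E11.5 CD-1 mouse embryos, pooled before plating, and it forms digit-like cartilage in serum-containing medium. For each of Day 2, Day 7 and Day 10, libraries A and B came from separate cultures, were made with a droplet kit that counts the 3′ ends of transcripts as UMIs (1 UMI stands for 1 captured molecule), and carry no treatment or altered allele in their labels. The day is the only factor in the labels. The sources used here do not say whether 1 pool of embryos seeded the cultures of all 3 days, so an effect of the starting pool and the day cannot be told apart. Cells of each library were also divided at 0.3% of their UMIs from *Matn1* and *Snorc*, 2 cartilage genes that are not among the 42. All 42 symbols occurred once in the feature table, and all 42 passed the filter on low counts in each of the 8 comparisons. The filter asks for counts in only as many libraries as a group holds. A gene with few UMIs on 1 day can therefore pass through a day where it is higher, as given below for *Chst13* and *Hs3st6*.

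Glycosaminoglycans are long sugar chains, and the sulfated ones described here are built on core proteins in the Golgi. Chondroitin, dermatan and heparan sulfate all begin with the same short linker on a serine of the core protein, after which 1 set of enzymes extends a chondroitin chain and another a heparan chain. Sulfotransferases then add sulfate from PAPS, the activated sulfate donor, at fixed positions of the sugars. In cartilage, chondroitin sulfate chains on aggrecan hold water and give the tissue its stiffness, and sulfate import and PAPS synthesis are needed for it. Heparan sulfate chains on cell surfaces bind growth factors, and their sulfation pattern sets which ones bind.

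The study's filters kept 9448 to 16486 cells per library, with 178022112 to 260245417 UMIs in each. Day 2 library B was shallow, with a median of 3871 UMIs per cell against 18587 in library A, and its members' levels differed from those of library A by a median of 0.09 on the log2 scale. Any pair of libraries shared between 24 and 67 cell barcodes, at most 0.543% of the smaller library. No cell at Day 2 library A and 1 cell at Day 2 library B lay above the *Matn1* and *Snorc* limit. At Day 7, 2896 cells of library A (21.5%) and 2567 of library B (20.8%) lay above it. The numbers for Day 10 were 1563 (15.1%) and 1400 (14.1%). The limit cuts a continuous range, since 3346 and 2609 cells at Day 7 and 1238 and 1100 cells at Day 10 had a share between 0.15% and 0.6%. At Day 7 the cells above the limit were much deeper than those below, with medians of 25106 against 5448 UMIs in library A and 26338 against 6454 in library B. At Day 10 the medians were 29438 against 23651.5 and 27369 against 21405.

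The class above the limit carried cartilage RNA that the limit did not use. All 7 chondrocyte markers were higher above than below it on both days, with *Acan*, the aggrecan core protein, at log2 fold changes of 2.62 ± 0.04 (± standard error, here and below) at Day 7 and 3.77 ± 0.04 at Day 10, and *Sox9*, the chondrogenic transcription factor, at 1.32 and 2.03. The 4 tenocyte, 4 contractile and stromal, 4 perichondrium, 4 dividing and 6 immune markers were all lower above it on both days. Of the 4 articular and joint markers, 4 were lower at Day 7, and 3 lower and 1 higher at Day 10. Of the 3 hypertrophy markers, 1 was higher and 2 lower at Day 7 and 2 were higher at Day 10, and of the 5 bone markers 1 was higher on each day and 1 lower at Day 7 and 3 lower at Day 10. Of 11 genes that respond to cell dissociation, 10 were lower above the limit at Day 7 and 9 at Day 10. The summed level of the dissociation genes was 738 to 739 TMM-scaled CPM (a gene's share of all UMIs in 1000000, scaled with edgeR's TMM factors) above the limit and 1263 to 1362 below it at Day 7, and 839 to 936 against 1337 to 1388 at Day 10. The part of dissociation and free RNA in the class differences below was not tested. For depth, a rerun kept only cells of at least 5000 UMIs, and 4 single-gene values over all comparisons lost their call. That floor does not match depth between the classes, and the part of depth was not tested further.

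Between Day 2 and Day 7, most of the 42 genes rose in whole cultures. They were chosen with earlier results of these data known, so a count set against all genes does not test the pathway. Levels are given as TMM-scaled CPM, and a gene was called when the Benjamini-Hochberg adjusted p of edgeR's quasi-likelihood test over all 18987 genes tested was under 0.05. By this rule 29 of the 42 genes, *Chst13* among them, were higher and 6 lower at Day 7 than at Day 2. Of all genes tested, 35.7% were called higher and 34.6% lower (70.3% in all). The median log2 fold change of the 42 was 0.53, and that of all genes tested 0.01. With library totals alone as the scaling, the split was 23 higher and 13 lower, and the median of all genes moved by -0.27. In such sums over a culture, a change in the number of cells of a type and a change in the RNA per cell cannot be told apart.

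**Figure D1:**
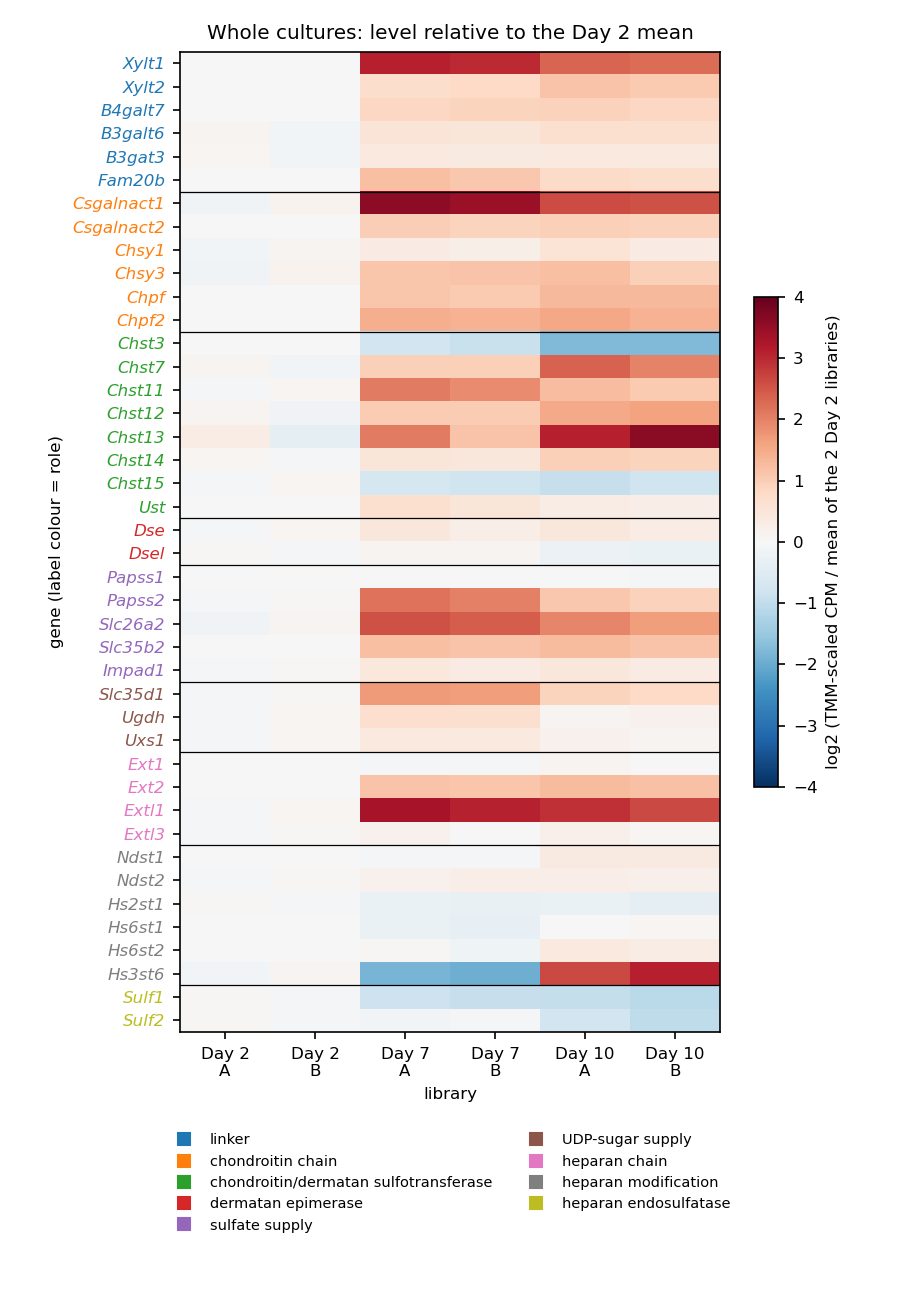
Level of each of the 42 genes in the 6 libraries (columns), as the log2 ratio of its TMM-scaled CPM to the mean of the 2 Day 2 libraries (colour, red higher and blue lower), with genes as rows grouped by role. *Csgalnact1*, *Xylt1* and *Extl1* have the deepest red at Day 7 and are paler at Day 10, whereas *Chst7*, *Chst13* and *Hs3st6* are reddest at Day 10 and *Chst3* is blue at both.

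All 6 linker genes were higher at Day 7. *Xylt1*, a xylosyltransferase that starts the chain, measured 9.90 and 10.2 TMM-scaled CPM in the Day 2 libraries, 86.1 and 79.1 at Day 7 and 51.0 and 47.7 at Day 10. Its Day 7 libraries were highest and its Day 2 libraries lowest, with no overlap between days, and its log2 fold change from Day 2 to Day 7 was 3.04 ± 0.07 (adjusted p = 4.5e-09). Its paralog *Xylt2* rose less from Day 2 to Day 7, by 0.76 ± 0.07, and kept rising to Day 10. The galactosyltransferases *B4galt7* and *B3galt6*, the glucuronyltransferase *B3gat3* and the xylose kinase *Fam20b*, which complete or phosphorylate the linker, rose by 0.87, 0.49, 0.37 and 1.14 on the log2 scale.

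The chondroitin chain genes all rose as well, with *Csgalnact1*, which adds the first chondroitin sugar to the linker, far ahead of the others. *Csgalnact1* measured 5.96 and 7.18 TMM-scaled CPM at Day 2, 78.1 and 71.7 at Day 7, then 40.4 and 38.3 at Day 10, a log2 fold change of 3.51 ± 0.09 from Day 2 to Day 7 (adjusted p = 1.1e-08). Its paralog *Csgalnact2* rose by 0.93 and was level between Day 7 and Day 10, at 19.0 and 17.6 and then 18.6 and 18.0. Of the genes that extend the chain, *Chpf2*, *Chsy3* and *Chpf* rose by 1.43, 1.13 and 1.07. The polymerase gene *Chsy1* had a log2 fold change of 0.27 that was not called without Day 2 library A (0.17, adjusted p = 0.15) or without Day 7 library A (0.23, adjusted p = 0.12), and that became -0.01 with library totals alone.

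The sulfotransferases went in both directions. *Chst11*, the main chondroitin 4-O-sulfotransferase of cartilage, measured 11.7 and 13.1 TMM-scaled CPM at Day 2, 52.8 and 45.6 at Day 7, then 28.8 and 25.4 at Day 10, and its rise from Day 2 to Day 7 was 1.99 ± 0.09. *Chst3*, a chondroitin 6-O-sulfotransferase, fell at each step, from 5.91 and 6.101 to 3.52 and 3.21 and then to 1.75 and 1.78 (log2 fold changes -0.84 ± 0.08 and -0.93 ± 0.09). *Chst7*, another 6-O-sulfotransferase gene, did the opposite, going from 1.72 and 1.47 at Day 2 to 3.09 and 3.10 at Day 7 and then to 8.13 and 6.36. The 3 days of *Chst3* and of *Chst7* did not overlap in any library. *Chst12* and *Chst14*, 4-O-sulfotransferase genes for chondroitin and for dermatan, rose at both steps, by 1.01 and then 0.56 and by 0.47 and then 0.47. *Chst15*, which adds a further 6-O-sulfate to an already sulfated sugar, fell from Day 2 to Day 7 by 0.74 and had a log2 fold change of -0.12 from Day 7 to Day 10 that was not called. *Ust*, the uronyl 2-O-sulfotransferase, rose by 0.57 and then fell by 0.30, a second call that was lost without Day 7 library A (-0.22, adjusted p = 0.077). The dermatan epimerase gene *Dse* rose by 0.36 from Day 2 to Day 7, and its paralog *Dsel* was at 0.11 and not called.

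The RNA of the sulfate supply genes other than *Papss1*, and of the sugar supply genes, also rose at Day 7. Only RNA was measured, not the chains or their sulfation. *Slc26a2*, the sulfate transporter of the cell membrane, measured 12.9 and 15.3 TMM-scaled CPM at Day 2, 83.0 and 75.4 at Day 7, then 54.3 and 45.3 at Day 10. *Papss2*, the PAPS synthase of cartilage, measured 28.6 and 29.96, then 132 and 117, then 62.5 and 54.9. Both were highest in the Day 7 libraries without overlap, with log2 fold changes from Day 2 to Day 7 of 2.49 ± 0.11 and 2.09 ± 0.08. *Papss1*, the other PAPS synthase gene, lay between 77.1 and 82.5 in all 6 libraries and was called at neither step. *Slc35b2*, which carries PAPS into the Golgi, and *Impad1*, which clears its spent form, rose by 1.17 and 0.38. The UDP-sugar genes *Slc35d1*, *Ugdh* and *Uxs1* rose by 1.69, 0.66 and 0.40 at Day 7, and all 3 fell at Day 10, although the call of *Uxs1* was lost without Day 7 library B (-0.25, adjusted p = 0.052) or Day 10 library B (-0.22, adjusted p = 0.068).

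Of the 12 heparan genes, 3 were higher and 4 lower at Day 7, against 35.7% and 34.6% of all genes tested. *Ext1*, 1 of the 2 heparan polymerase genes, lay between 48.4 and 55.2 TMM-scaled CPM in all 6 libraries and was called at neither step, while its partner *Ext2* went from 34.8 and 34.1 to 75.5 and 75.0, a log2 fold change of 1.13 ± 0.05. *Extl1*, a relative of the EXT enzymes, rose from 2.17 and 2.42 to 22.7 and 19.4 (3.20 ± 0.12), and the chain initiator *Extl3* was at 0.08 and not called. Of the 6 genes that modify the heparan chain, *Hs2st1*, *Hs6st1* and *Hs3st6* were lower at Day 7 and *Ndst2* was higher by 0.22, a call that was lost without Day 2 library A (0.17, adjusted p = 0.10) or Day 7 library B (0.19, adjusted p = 0.14) and whose value became -0.07 with library totals alone. *Sulf1*, an endosulfatase that removes 6-O-sulfate from heparan outside the cell, fell from 126 and 116 at Day 2 to 68.0 and 64.2 at Day 7 (-0.87 ± 0.07), and *Sulf2* was at -0.08 and not called.

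The rises of *Csgalnact1*, *Xylt1*, *Slc26a2*, *Papss2* and *Chst11* at Day 7 were also present in cells at or below the limit, but their size depended on where the limit was set. The summed chondrocyte markers rose in the same interval, from 1782 and 1923 TMM-scaled CPM in the Day 2 cultures to 5567 and 4783 below the limit at Day 7, and their part in these rises was not tested. In those cells 31 of the 42 genes were higher and 6 lower at Day 7 than at Day 2, against 34.5% and 32.7% (67.2% in all) of the 18739 genes tested. The Day 2 cells are almost the same in this comparison and in that of whole cultures, so the counts are not independent. With library totals alone the split was 21 higher and 9 lower, the median of all genes moving by -0.20. The log2 fold changes in these cells were 2.38 for *Csgalnact1*, 2.33 for *Xylt1*, 1.58 for *Slc26a2*, 1.07 for *Papss2* and 0.79 for *Chst11*. With the limit at 0.1% they were 1.66, 1.93, 1.11, 0.44 and 0.09, and *Chst11* was no longer called. With the limit at 1% they were 3.45, 2.98, 2.43, 2.04 and 1.91. Calls of 11 of the 37 genes were lost without 1 library, all with log2 fold changes of 0.34 or less in size except *Chst13*, which is described below.

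The comparison of cells above and below the limit asks how the pathway is divided between the cells rich in late cartilage RNA and the rest. Above the limit, all 6 linker, 5 sulfate supply and 3 UDP-sugar genes were called higher on both days. *Chst3*, *Chst7*, 4 of the 6 heparan modification genes and *Sulf1* were lower on both days. At Day 7, 25 genes were higher and 13 lower above the limit, against 36.7% and 35.5% (72.2% in all) of the 17455 genes tested. At Day 10, 26 were higher and 14 lower, against 34.5% and 36.1% (70.6% in all). The median log2 fold change of the 42 was 0.35 at Day 7 and 0.50 at Day 10, and that of all genes 0.01 and -0.01. With library totals alone, the splits were 19 to 17 and 21 to 15, and the median of all genes moved by -0.29 and -0.22. The direction was the same on both days for 24 genes higher and 12 lower, and turned between days for *Chpf* and *Chsy3*. The share of all genes called alike on both days was not computed. It can be at most 34.5% for higher and 35.5% for lower, the smaller of the 2 daily shares. Of the 24, the calls of *Xylt2*, *Chsy1* and *Dse* were lost without 1 library on at least 1 day. These p-values come from 2 libraries per day with the library as a covariate. They set a difference between classes against how much that difference varied between the 2 libraries of a day. The spread of levels between libraries is taken up by the covariate. The p-values do not say whether the classes are distinct kinds of cell. The estimate of that variation rests mostly on other genes, at 9.32 prior against 2 residual degrees of freedom.

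**Figure D2:**
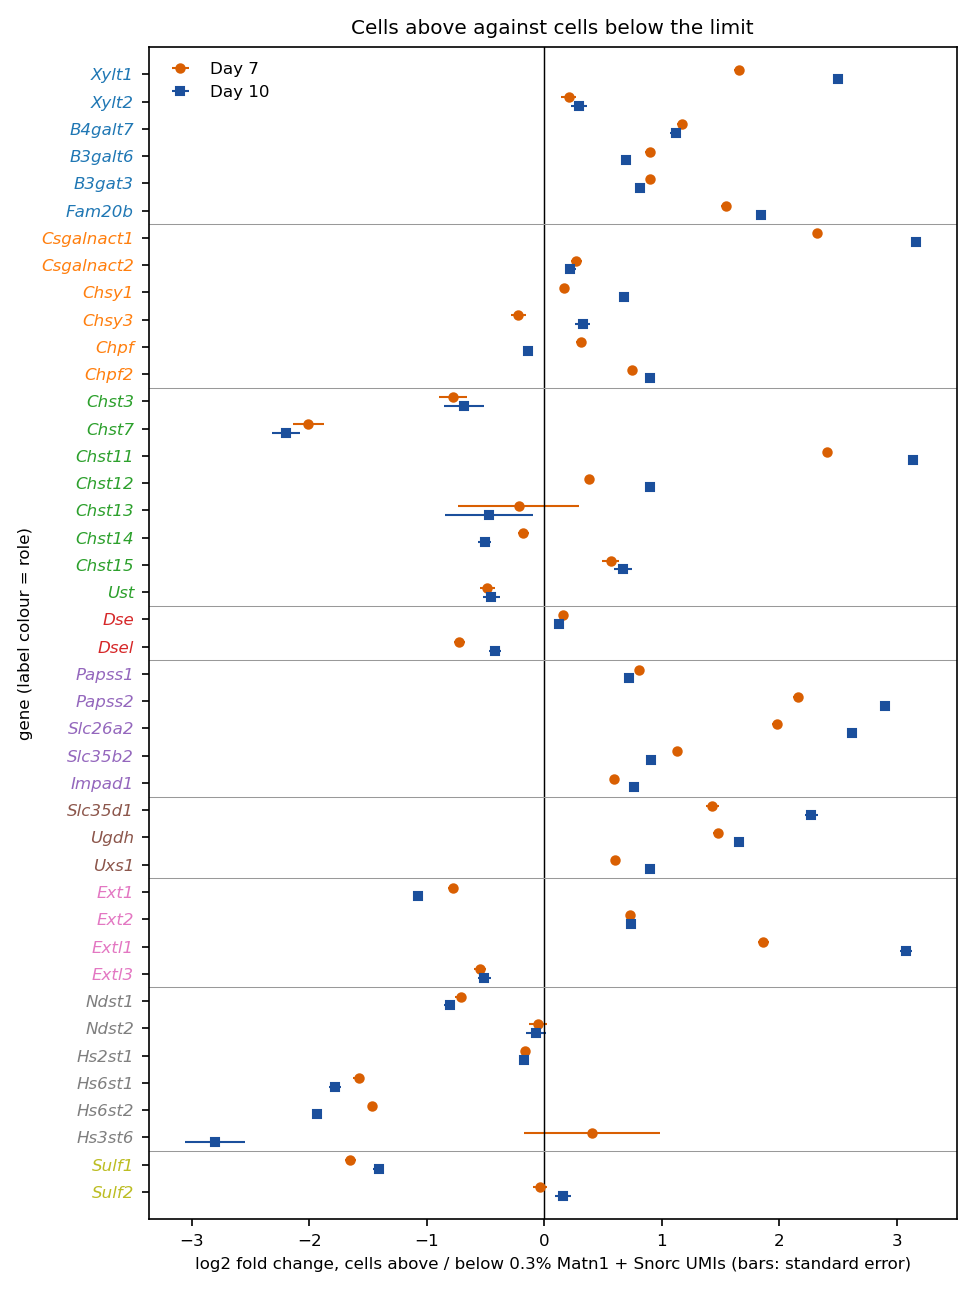
Log2 fold change of each of the 42 genes in cells above against cells at or below 0.3% *Matn1* and *Snorc* UMIs (x axis) at Day 7 (orange circles) and Day 10 (blue squares), with bars for the standard error and genes grouped by role. The linker, sulfate supply and UDP-sugar genes all lie to the right of 0, *Csgalnact1*, *Chst11*, *Extl1* and *Papss2* lie farthest right at Day 10, and *Chst7*, *Hs6st1*, *Hs6st2* and *Sulf1* lie to the left on both days.

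All 6 linker genes were higher above the limit on both days. *Xylt1* measured 148 and 134 TMM-scaled CPM above the limit and 45.3 and 43.9 below it at Day 7, and 154 and 137 against 25.8 and 25.7 at Day 10, log2 fold changes of 1.66 ± 0.04 and 2.50 ± 0.04. The classes did not overlap, and between the days it was the level below the limit that differed most. *Fam20b* followed with 1.54 and 1.85, and *B4galt7*, *B3galt6* and *B3gat3* lay between 0.70 and 1.17 on both days. *Xylt2* was at 0.21 and 0.30. At Day 7 its call was lost without either library, and with library totals alone its value turned to -0.10.

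*Csgalnact1* showed the largest difference among the chondroitin chain genes, with 155 and 146 TMM-scaled CPM above the limit and 31.3 and 29.1 below it at Day 7. At Day 10 it was at 145 and 138 above and 16.1 and 15.5 below. Its log2 fold changes were 2.32 ± 0.03 and 3.16 ± 0.04 (adjusted p = 4.7e-13 and 3.0e-14). *Chpf2* was higher by 0.74 and 0.90. *Csgalnact2* was at 0.27 and 0.22 and *Chsy1* at 0.17 at Day 7 and 0.67 at Day 10, although with library totals alone the Day 7 values of both turned, to -0.03 and -0.13. The Day 7 call of *Chsy1* was lost without library B (0.10, adjusted p = 0.071), and with library totals alone it was called in the other direction (adjusted p = 0.0080). *Chpf* was higher above the limit at Day 7 by 0.31 and lower at Day 10 at -0.14, and *Chsy3* was lower at Day 7 at -0.22 and higher at Day 10 by 0.33. The Day 7 call of *Chsy3* was lost without library B (-0.08, adjusted p = 0.30), and the Day 10 call of *Chpf* without library B (-0.13, adjusted p = 0.057). Without TMM factors, *Chpf* at Day 7 was not plainly higher above the limit. Below it, *Chpf* was at 31.8 and 28.7 CPM at a share of 0, 34.0 and 31.8 up to 0.1%, and 39.3 and 36.5 up to 0.3%. Above it, the values were 34.1 and 33.2 up to 1%, and 34.3 and 28.3 above 1%.

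The sulfotransferases for the same sugar were divided between the classes. *Chst11* measured 106 and 95.7 TMM-scaled CPM above the limit and 20.7 and 17.3 below it at Day 7, and 103 and 91.0 against 11.6 and 10.4 at Day 10, with log2 fold changes of 2.41 ± 0.04 and 3.14 ± 0.04. *Chst12* and *Chst15* were also higher above the limit, by 0.38 and 0.90 and by 0.57 and 0.67. *Chst7* was far lower above it, at 0.947 and 0.863 against 3.65 and 3.65 at Day 7 and at 1.59 and 1.65 against 8.39 and 6.46 at Day 10 (-2.01 ± 0.13 and -2.20 ± 0.12). *Chst3* was lower too, at -0.78 ± 0.12 and -0.68 ± 0.17. The 6-O-sulfotransferase genes thus went both ways in the cells above the limit, with *Chst3* and *Chst7* lower and *Chst15* higher. Of the 3 chondroitin 4-O-sulfotransferase genes, 2 were higher there. *Chst14* and *Ust*, which act on dermatan and on the uronic acid, were lower above the limit on both days, at -0.18 and -0.51 and at -0.48 and -0.45, and the Day 7 call of *Chst14* was lost without library B (-0.16, adjusted p = 0.083). The epimerase gene *Dsel* was lower at -0.72 and -0.42. *Dse* differed by 0.16 and 0.13, and without library B its calls were lost on both days (0.12, adjusted p = 0.055 and 0.10, adjusted p = 0.15). With library totals alone it was at -0.145, called in the other direction (adjusted p = 0.0039), and at -0.08.

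Each of the 5 sulfate supply genes and the 3 UDP-sugar genes was higher above the limit on both days. *Papss2* measured 251 and 233 TMM-scaled CPM above the limit and 58.6 and 50.1 below it at Day 7, and 206 and 186 against 28.4 and 24.4 at Day 10, log2 fold changes of 2.16 ± 0.04 and 2.90 ± 0.04. *Slc26a2* measured 151 and 144 against 39.9 and 35.02 at Day 7 and 164 and 141 against 27.5 and 22.3 at Day 10 (1.98 and 2.62). The 2 classes of *Papss2* and of *Slc26a2* were far apart in all 4 libraries. With the limit at 1%, the Day 7 differences were smaller, at 1.24 for *Papss2*, 1.46 for *Csgalnact1* and 1.06 for *Extl1*, and all 3 were still called. *Papss1*, which was steady in whole cultures, was also higher above the limit, by 0.81 and 0.72. *Slc35b2* and *Impad1* differed by 1.13 and 0.91 and by 0.59 and 0.77. *Slc35d1*, which brings UDP-glucuronate and UDP-N-acetylgalactosamine into the endoplasmic reticulum, differed by 1.43 and 2.27, *Ugdh*, which makes UDP-glucuronate, by 1.48 and 1.66, and *Uxs1*, which makes UDP-xylose, by 0.60 and 0.90.

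The heparan chain genes split between the classes. *Ext2* and *Extl1* were higher above the limit, by 0.73 and 0.74 and by 1.86 and 3.08, with *Extl1* at 39.9 and 35.9 against 11.5 and 9.40 TMM-scaled CPM at Day 7 and at 59.6 and 51.8 against 7.33 and 5.87 at Day 10. *Ext1*, the partner of *Ext2*, was lower above the limit, at 29.8 and 29.6 against 52.1 and 49.8 at Day 7 and at 24.8 and 25.1 against 54.3 and 51.0 at Day 10 (-0.78 ± 0.04 and -1.08 ± 0.04). *Extl3* was lower at -0.55 and -0.51. The 2 polymerase partners differed in opposite directions between the same cells.

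No heparan modification gene was higher above the limit at either day, and 4 of 6 at Day 7 and 5 of 6 at Day 10 were lower, against 35.5% and 36.1% of all genes tested. *Hs6st2*, a heparan 6-O-sulfotransferase gene, measured 35.6 and 31.5 TMM-scaled CPM above the limit and 99.3 and 85.8 below it at Day 7, and 29.8 and 28.2 against 114 and 107.1 at Day 10 (-1.46 ± 0.03 and -1.93 ± 0.04). *Hs6st1*, its paralog, measured 8.61 and 8.02 against 25.5 and 24.2 at Day 7 and 7.70 and 8.55 against 27.0 and 28.9 at Day 10 (-1.58 and -1.78). *Ndst1*, which starts the modification by N-sulfation, was lower at -0.71 and -0.80, and *Hs2st1* at -0.16 and -0.17, whereas *Ndst2* was at -0.05 and -0.07 and not called. *Sulf1*, which removes the sulfate that the 6-O-sulfotransferases add, was lower as well, at 26.0 and 22.2 against 77.8 and 73.5 at Day 7 and at 22.4 and 22.7 against 63.2 and 56.7 at Day 10 (-1.65 and -1.41). Its paralog *Sulf2* was at -0.03 at Day 7 and at 0.16 at Day 10, a call with an adjusted p of 0.050 that was lost without Day 10 library B (0.02, adjusted p = 0.84) and that turned to -0.04 with library totals alone.

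Genes at both ends of this range are shown by the 250 bases before their RefSeq start sites (GRCm38.p6), since *Papss2* and *Chst11* were among the genes highest above the limit and *Hs6st2* among the lowest. Capitals mark a SOX-type core, AACAAT or its reverse complement ATTGTT, searched on both strands. The *Papss2* windows are chr19:32595465-32595714 and chr19:32619755-32620004 on the plus strand, that of *Chst11* is chr10:82985247-82985496 on the plus strand, and that of *Hs6st2* nearest to its first annotated start is chrX:51681603-51681852 on the minus strand.
Papss2 upstream window: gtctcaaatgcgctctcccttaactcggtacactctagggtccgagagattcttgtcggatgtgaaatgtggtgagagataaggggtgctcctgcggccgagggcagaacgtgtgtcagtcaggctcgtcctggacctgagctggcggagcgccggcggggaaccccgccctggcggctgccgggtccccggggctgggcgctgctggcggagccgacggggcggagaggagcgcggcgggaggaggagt
Papss2 downstream window: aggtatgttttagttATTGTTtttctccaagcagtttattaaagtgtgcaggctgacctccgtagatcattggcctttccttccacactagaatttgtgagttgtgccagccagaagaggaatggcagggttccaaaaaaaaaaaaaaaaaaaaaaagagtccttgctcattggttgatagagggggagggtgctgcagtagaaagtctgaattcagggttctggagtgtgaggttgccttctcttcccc
Chst11 window: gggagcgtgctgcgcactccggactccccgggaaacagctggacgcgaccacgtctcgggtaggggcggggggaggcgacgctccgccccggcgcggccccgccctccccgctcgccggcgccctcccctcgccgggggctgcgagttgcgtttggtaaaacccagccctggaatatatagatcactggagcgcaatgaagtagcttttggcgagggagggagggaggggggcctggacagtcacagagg
Hs6st2 window: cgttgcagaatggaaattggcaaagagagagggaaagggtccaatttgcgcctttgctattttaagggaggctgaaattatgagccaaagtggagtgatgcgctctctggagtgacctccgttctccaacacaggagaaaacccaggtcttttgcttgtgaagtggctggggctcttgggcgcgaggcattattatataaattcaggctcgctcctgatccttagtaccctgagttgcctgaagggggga
Only the downstream *Papss2* window of these 4 holds the core. Over all windows the core was found in 9.42% of 32851, and in 1 of the 39 windows (2.56%) of the 32 genes of this pathway that the table holds. The median GC content was 64.4% in the windows of the pathway and 52.4% in all windows. For *Papss2* it was 67.6% in the upstream and 43.2% in the downstream window. The downstream *Papss2* window and the *Hs6st2* window lie inside the annotated genes. A second *Hs6st2* window, at chrX:51680478-51680727, was not printed and held no core. The 3′ counts do not show which start site was used. The windows of *Csgalnact1*, *Impad1*, *Ext1*, *Chsy3*, *Sulf1*, *Ndst1*, *Extl3*, *Xylt1*, *Hs3st6* and *Slc26a2* were not analysed here. In the GENCODE vM21 annotation of GRCm38, *Papss2* lies at chr19:32595790-32667187, *Chst11* at chr10:82985498-83195900 and *Hs6st2* at chrX:51387212-51681856.

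For *Csgalnact1*, *Papss2* and *Hs6st2* the levels also differed along the *Matn1* and *Snorc* share below the limit. Above it, *Csgalnact1* and *Hs6st2* differed in all 4 libraries, and *Papss2* changed less. Levels here are CPM without TMM factors, over cells with a share of 0, up to 0.1%, up to 0.3%, up to 1% and above 1%. In Day 7 library A, *Csgalnact1* was at 18.5, 21.0, 99.2, 137 and 173 along these 5 ranges, and in Day 10 library A at 10.6, 12.7, 86.2, 128 and 156. *Papss2* was at 43.7, 42.1, 168, 225 and 254 in Day 7 library A and at 19.5, 23.4, 139, 188 and 198 in Day 10 library A. Between the last 2 ranges of the B libraries, *Papss2* went from 207 to 209 at Day 7 and from 173 to 188 at Day 10. Both genes stepped up most between the range up to 0.1% and the range up to 0.3%, below the limit itself. *Hs6st2* ran the other way, at 128, 118, 65.9, 33.3 and 22.2 in Day 7 library A and at 132, 124, 63.4, 28.7 and 22.8 in Day 10 library A. The B libraries followed the same order of ranges for *Hs6st2*, with 108 down to 20.5 at Day 7 and 127 down to 22.0 at Day 10. At a share above 1%, the 4 libraries held 256 to 327 cells each.

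**Figure D3:**
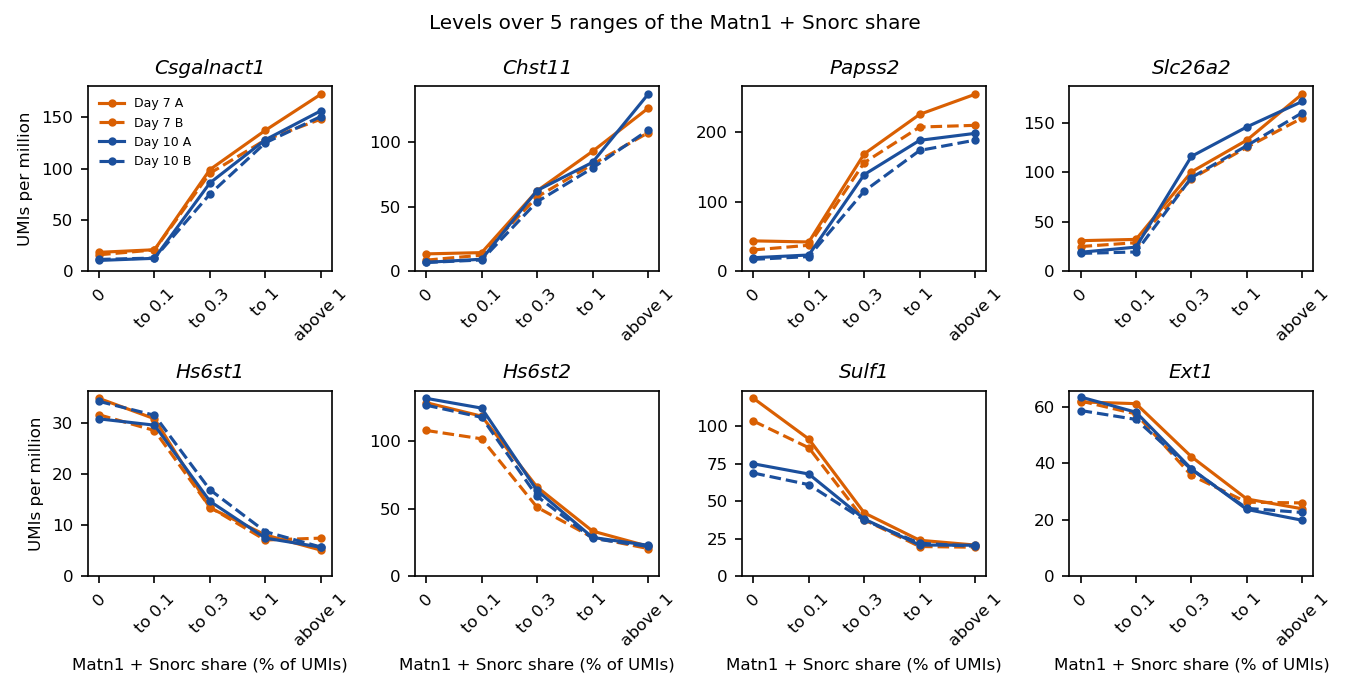
Level of 8 genes (y axis, CPM without TMM factors, starting at 0) in cells grouped by their *Matn1* and *Snorc* share (x axis, 5 ranges) in the 2 Day 7 libraries (orange) and the 2 Day 10 libraries (blue), with library A as a full and library B as a dashed line. In all 4 libraries the upper 4 genes are higher, and the lower 4 genes lower, in the last range than in the first.

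From Day 7 to Day 10 the members went in both directions in whole cultures, and several of the genes that had risen most at Day 7, among them *Csgalnact1*, *Xylt1*, *Slc26a2*, *Papss2* and *Chst11*, fell. In whole cultures 10 genes were higher and 14 lower at Day 10, against 26.3% and 25.9% (52.2% in all) of the genes tested, with a median log2 fold change of 0.01. In cells below the limit 15 were higher and 15 lower, against 26.4% and 25.3% (51.8% in all), and in cells above it 13 higher and 8 lower, against 21.6% and 22.0% (43.7% in all) of the 15311 genes tested there. With library totals alone, the split above the limit was 16 to 4, with DESeq2 8 to 4 and with the limit at 1% 4 to 2. Without Day 7 library A, 4 genes were lower there, and the calls of 9 of the 21 genes were lost without 1 library. The 14 genes that fell in whole cultures were also called lower below the limit, whose cells make up most of each culture, so the calls are not independent. Above the limit 6 of the 14 were lower, 7 were not called and *Extl1* was higher. The whole-culture call of *Extl1* was lost without Day 7 library A (-0.29, adjusted p = 0.077) or Day 10 library B (-0.28, adjusted p = 0.071). Of the 6 lower above the limit, the call of *Ugdh* was lost without any 1 of the 4 libraries (-0.16 to -0.11), and that of *Dsel* without Day 7 library A, Day 7 library B or Day 10 library A (-0.20, -0.20 and -0.12). Below the limit, the call of *Fam20b* was lost without Day 7 library A (-0.13, adjusted p = 0.23) or Day 10 library B (-0.17, adjusted p = 0.14), and that of *Uxs1* without Day 7 library A, Day 7 library B or Day 10 library B (-0.26, -0.21 and -0.20).

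**Figure D4:**
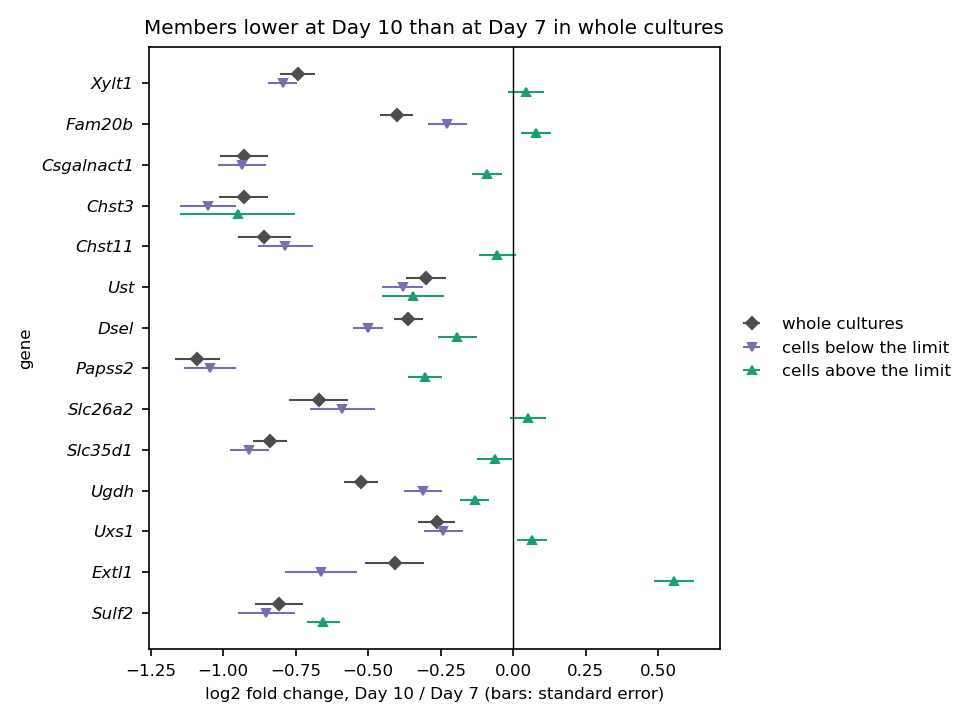
Log2 fold change from Day 7 to Day 10 (x axis, bars for the standard error) of the 14 genes that were lower at Day 10 in whole cultures, in whole cultures (grey), in cells below the limit (purple) and in cells above it (green). For *Xylt1*, *Csgalnact1*, *Chst11*, *Slc26a2* and *Slc35d1* the green points lie near 0 while the other points lie well to the left, and *Chst3* and *Sulf2* lie to the left in all 3.

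*Papss2* fell by 1.09 on the log2 scale in whole cultures and by 1.04 below the limit, and by 0.30 above it. *Csgalnact1* was at -0.93, -0.94 and -0.09 in whole cultures, below and above the limit, and the last was not called. *Chst11* was at -0.86, -0.79 and -0.05, *Slc35d1* at -0.84, -0.91 and -0.06, *Xylt1* at -0.74, -0.79 and 0.05, and *Slc26a2* at -0.67, -0.59 and 0.05, with none of the values above the limit called. The summed chondrocyte markers in cells below the limit also went down, from 5567 and 4783 to 2879 and 2492 TMM-scaled CPM. The share of cells above the limit went from 21.5% and 20.8% to 15.1% and 14.1%. Their part in these falls was not tested. With the limit at 0.1%, the falls below it were 0.83 for *Papss2*, 0.65 for *Csgalnact1* and 0.56 for *Chst11* on the log2 scale.

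Other genes fell in both classes. *Chst3* was at -1.05 ± 0.10 below the limit and -0.95 ± 0.20 above it, *Sulf2* at -0.85 and -0.65, and *Ust* at -0.38 and -0.35. *Sulf2* measured 61.4 and 56.6 TMM-scaled CPM at Day 7 and 38.2 and 36.7 at Day 10 above the limit, and 57.7 and 63.3 and then 37.4 and 29.8 below it, without overlap between days in either class. The call of *Ust* above the limit was lost without Day 7 library A (-0.26, adjusted p = 0.17).

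*Chst12*, *Chsy1*, *Extl1* and *Chsy3* rose above the limit and rose less, fell or were not called below it. *Chst12* measured 24.0 and 24.96 TMM-scaled CPM above the limit at Day 7 and 47.9 and 50.9 at Day 10, a rise of 1.01 ± 0.06 (adjusted p = 4.8e-09), against 0.50 ± 0.08 below it. *Chsy1* rose from 46.5 and 46.1 to 75.8 and 64.1 above the limit (0.59 ± 0.07), and was at 0.09 and not called below it. *Extl1* rose by 0.55 above the limit and fell by 0.66 below it. *Chsy3* rose by 0.37 above it and was at -0.18 and not called below. *Chst7* rose in both classes, by 1.02 below the limit and 0.84 above it, the latter not called by DESeq2. The class above the limit also changed in its markers between the days. Its summed hypertrophy markers went from 53.1 and 57.2 TMM-scaled CPM at Day 7 to 608 and 363 at Day 10, and its bone markers from 14.2 and 14.0 to 423 and 400, and their part in these rises was not tested.

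The test of the difference itself, whether the gap between the classes changed from Day 7 to Day 10, called 17 genes with a higher and 7 with a lower log2 fold change at Day 10, against 13.0% and 19.7% (32.7% in all) of the genes tested. *Extl1* had the widest shift upwards, 1.21 ± 0.07, followed by *Csgalnact1*, *Xylt1* and *Slc35d1* at 0.84 each, *Papss2* at 0.74, *Chst11* at 0.73 and *Slc26a2* at 0.64. All 3 UDP-sugar genes and 4 of the 6 chondroitin chain genes were among the 17, although the calls of *Ugdh* (0.12, adjusted p = 0.20 without Day 10 library A) and *Chpf2* (0.12, adjusted p = 0.22 without Day 10 library B) were lost without 1 library. Among the 7 with a shift downwards were *Hs3st6* at -3.21, *Hs6st2* at -0.47, *Chpf* at -0.45, *Chst14* at -0.33, *Ext1* at -0.30 and *Slc35b2* at -0.22. *Hs3st6* passed the filter on low counts in this test only through Day 10, where it is higher. The call of *Hs3st6* was lost without Day 7 library B (-2.65, adjusted p = 0.092) and its value turned to 2.10 with the limit at 1%, and that of *Slc35b2* was lost without Day 7 library B (-0.16, adjusted p = 0.076). For *Sulf1* the shift was 0.24, since its gap narrowed, and it was not called without Day 7 library B (0.17, adjusted p = 0.15) or Day 10 library B (0.15, adjusted p = 0.18).

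*Hs3st6*, a heparan 3-O-sulfotransferase gene, had few UMIs and a pattern of its own. Its 67 and 69 UMIs at Day 2 went to 17 and 15 at Day 7 and to 485 and 600 at Day 10, or 0.290 and 0.339, 0.0870 and 0.0807, and 1.98 and 2.70 TMM-scaled CPM. The log2 fold change from Day 7 to Day 10 was 4.79 ± 0.24 (adjusted p = 5.6e-06). Below the limit it was 5.13 ± 0.26. Above the limit it was 1.90 ± 0.55, and this call was lost without Day 10 library B (1.02, adjusted p = 0.34) or Day 7 library A (1.61, adjusted p = 0.10). The log2 difference between the classes at Day 10 was -2.80 ± 0.25, and -3.48 without library B. The values above the limit rest on 5 and 7 UMIs at Day 7 and 8 and 20 at Day 10. In the day comparison above the limit, *Hs3st6* passed the filter on low counts only through Day 10, where it is higher. Its rise is among the calls counted for those cells. In the comparison of the classes it also passed only through Day 10. There it is counted among the genes lower above the limit at Day 10 and among the shifts downwards between the days.

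Where this RNA lay was looked up after the values had been seen, by taking, among cells below the limit, the tenth of cells with the highest share of each marker list, or all cells with a UMI of the list where these were fewer. At Day 10, the 883 and 855 cells richest in the bone markers *Sp7*, *Ibsp*, *Ifitm5*, *Bglap* and *Dmp1* held 8.50% and 8.59% of the cells of their libraries. They held 452 of the 485 *Hs3st6* UMIs in library A (93.2%) and 561 of the 600 in library B (93.5%). These cells held 5.78% and 6.31% of all UMIs of their libraries. In these cells its level was 30.1 and 38.1 CPM without TMM factors. The corresponding cells held 5.36% and 27.0% of its UMIs for the perichondrium markers, 14.2% and 14.5% for the immune markers (653 and 799 cells) and 0.206% and 0.333% for the tenocyte markers, and a cell may be in more than 1 of these sets. The summed bone markers of whole cultures rose in the same interval from 13.1 and 14.2 to 582 and 817 TMM-scaled CPM.

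*Chst13*, the least abundant of the chondroitin 4-O-sulfotransferase genes, was near the limit of detection, with 9 and 5 UMIs at Day 2, 26 and 13 at Day 7, then 67 and 87 at Day 10. Its Day 2 counts lie under the cutoff of the filter on low counts, so *Chst13* passed through Day 7 and Day 10, where it is higher. It was called higher at both steps, by 1.65 ± 0.49 and 1.70 ± 0.35, and the first call was lost without Day 2 library B (1.37, adjusted p = 0.078) or Day 7 library A (1.12, adjusted p = 0.13). Its rises are among the calls counted for whole cultures and for cells below the limit. The bone-marker cells of Day 10 held 39 of its 67 UMIs in library A (58.2%) and 67 of 87 in library B (77.0%). *Chst7* was placed elsewhere. The tenth of cells richest in the contractile and stromal markers held 307 and 308 of its UMIs at Day 7 (50.8% and 53.4%) and 595 and 435 at Day 10 (29.9% and 30.8%), where its level was 16.0 and 12.0 CPM. These sets were deep, with 7.85% and 7.92% of the cells and 17.6% and 17.2% of all UMIs of their libraries at Day 7, and 8.50% and 8.59% of the cells and 14.3% and 15.5% of the UMIs at Day 10. In the bone-marker cells of Day 10 it was at 3.92 and 2.24.

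**Figure D5:**
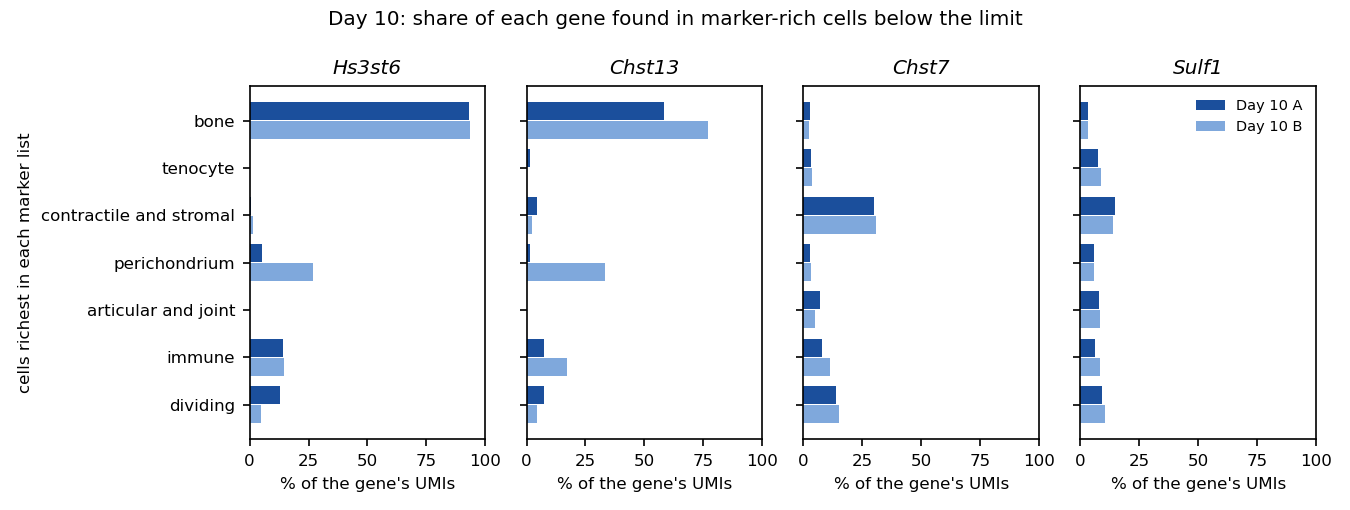
Percent of the UMIs of *Hs3st6*, *Chst13*, *Chst7* and *Sulf1* in a Day 10 library (x axis) that lay in the cells below the limit with the highest share of each of 7 marker lists (y axis; the top 10%, or for the immune list all 653 and 799 cells with a UMI of it), for library A (dark) and library B (light). The bone-marker cells hold 93.2% and 93.5% of *Hs3st6*, and the contractile and stromal cells hold more of *Chst7* than the other 6 sets do.

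Within the cells above the limit at Day 10, the tenth with the highest share of the hypertrophy genes *Ihh*, *Col10a1* and *Mmp13* (157 and 140 cells) was set beside the rest in the same way. *Chsy1* was at 141 and 90.7 CPM in these cells and at 59.1 and 55.9 in the rest, a higher value in both libraries. *Extl1* was at 37.6 and 34.96 against 57.6 and 51.2, and *Hs6st2* at 18.1 and 19.5 against 28.9 and 27.8. *Fam20b* was at 69.8 and 76.1 against 57.5 and 55.4. *Papss2*, at 177 and 163 against 192 and 179, and *Csgalnact1*, at 128 and 146 against 135 and 128, were close to the rest. These are descriptions of cells chosen from the same counts and carry no test.

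Beside the 42, 6 lists of other genes of these pathways were set out, and 70 of their 71 genes were in the feature table. Of 15 genes for sugar nucleotides and Golgi transport, 14 were higher above the limit on both days. Of all genes tested, 36.7% were higher at Day 7 and 34.5% at Day 10, and the share higher on both days was not computed. Among the 14 were *Gfpt2*, which starts hexosamine synthesis (1.75 and 2.63), and the transporter gene *Slc35a3* (1.23 and 1.64). Of 12 other heparan enzyme genes, 9 were lower at Day 7 than at Day 2 in whole cultures, against 34.6% of all genes tested, among them *Ndst4* at -2.18 and *Hs3st3b1* at -2.11. Of 12 lysosomal genes that break the chains down, all 12 rose from Day 2 to Day 7, with *Naglu* at 2.13, and 10 rose again at Day 10, against 35.7% and 26.3% of all genes tested. At Day 10, 8 of these 12 were lower above than below the limit, against 36.1% of all genes tested.

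Among 18 core protein genes, 12 were higher and 4 lower at Day 7 than at Day 2, against 35.7% and 34.6% of all genes tested. *Epyc* and *Acan*, which carry their chains in cartilage, differed by 4.94 and 3.77 on the log2 scale above against below the limit at Day 10, and *Col9a2* by 3.61. *Vcan*, a chondroitin sulfate core protein of mesenchyme, was lower above the limit at Day 7 at -2.61. Of the 7 genes of the hyaluronan list that were tested, *Cd44*, the hyaluronan receptor, was lower above the limit at -2.77 and -2.69, and *Has2*, the main hyaluronan synthase of the limb, was higher at 0.84 and 1.83. Of the 5 keratan sulfate genes tested, 4 were lower at Day 7 than at Day 2, against the same 34.6%, with *B4galt4* at -0.93 and *Chst2* at -0.92, and *Chst5* was higher by 0.80.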

How the data were processed

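The data are UMI counts from 10x 3′ libraries of DID cultures (Day 2, Day 7, Day 10; 2 libraries per day). Alignment to GRCm38 (mm10) and counting were done by the authors with Cell Ranger 6.1.2, and the deposited matrices hold whole UMI counts per gene and barcode called as a cell, with no normalization. STAR and Seurat 4.1.0 are also named in the submitters' processing notes. Cell filters of the study (UMIs, genes, mitochondrial and ribosomal share per library) were applied to the matrices with Python 3.11.15, and no doublets were removed. Counts were summed per library, or per library and class at 0.3% *Matn1* and *Snorc* UMIs, and the sums were tested with edgeR 4.0.16 in R 4.3.3 (filterByExpr, TMM factors, quasi-likelihood test). The class comparisons had the library as a covariate and no Day 2 library. Benjamini-Hochberg adjustment was over all genes tested, with a threshold of 0.05. The library is the unit, so n = 2 per day. TMM factors lay between 0.887 and 1.14, and the biological coefficient of variation was 0.0689 in whole cultures and 0.0302 in the class comparison. On simulated counts, 84.5% of 200 genes changed 2-fold were recovered for Day 10 against Day 7 in whole cultures (18571 genes), and 79.0% for the classes at Day 10 (17021 genes). False calls numbered 10 and 5. In the data 52.2% and 70.6% of the genes tested were called, so these rates describe a setting with far fewer changed genes. Alternatives were DESeq2 1.42.0, other scalings, filters and limits, and leaving out each library. Any of the 42 genes could be named, and for other lists at most the 3 called genes with the largest change per comparison. The members and lists were chosen with earlier results of these data known. The sets of marker-rich cells were added after the values had been seen.

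Letters A and B were not treated as pairs across days. The A minus B deviations of all genes correlated at -0.02, -0.06 and -0.01 between days, which does not show whether a letter shares a pool or run. Promoter windows came from RefSeq (GRCm38.p6), gene positions from GENCODE vM21, and all 42 identifiers were matched. Lists of muscle and erythrocyte markers were also measured: both were lower at Day 7 than at Day 2 in every gene listed (5 of 5 and 2 of 2), and erythrocyte markers had no UMI at Day 7 or Day 10.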

Additional observations from a re-analysis of the deposited data

Results flagged for a closer look

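For 24 of the 42 genes the log2 difference between cells above and below the limit was not the same at Day 7 and Day 10, by edgeR's quasi-likelihood test of the difference between days (adjusted p under 0.05 over the 17455 genes tested, where 32.7% were called in either direction). Values are the Day 10 difference minus the Day 7 difference. Among the linker genes, *Xylt1* was at 0.84, *Fam20b* at 0.30 and *B3galt6* at -0.20. The chondroitin chain genes *Csgalnact1*, *Chsy3*, *Chsy1* and *Chpf2* were at 0.84, 0.55, 0.50 and 0.16, and *Chpf* at -0.45. The sulfotransferase genes *Chst11* and *Chst12* were at 0.73 and 0.51, *Chst14* was at -0.33, and the epimerase gene *Dsel* at 0.30. Among sulfate supply genes, *Papss2* was at 0.74, *Slc26a2* at 0.64, *Impad1* at 0.17 and *Slc35b2* at -0.22. The UDP-sugar genes *Slc35d1*, *Uxs1* and *Ugdh* were at 0.84, 0.30 and 0.18. Of the heparan genes, *Extl1* was at 1.21, *Sulf1* at 0.24, *Ext1* at -0.30, *Hs6st2* at -0.47 and *Hs3st6* at -3.21. *Hs3st6* passed the filter on low counts in this test only through Day 10, where it is higher.

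The calls of *B3galt6*, *Chpf2*, *Dsel*, *Slc35b2*, *Impad1*, *Ugdh*, *Hs3st6* and *Sulf1* were lost when 1 library was left out. *Chpf2*, for example, was at 0.12 (adjusted p = 0.22) without Day 10 library B, *Impad1* at 0.14 (adjusted p = 0.13) and *Ugdh* at 0.12 (adjusted p = 0.20) without Day 10 library A, *Slc35b2* at -0.16 (adjusted p = 0.076) without Day 7 library B, and *B3galt6* at -0.15 (adjusted p = 0.16) without Day 10 library A. *Hs3st6* was at -2.65 (adjusted p = 0.092) without Day 7 library B and at -3.89 without Day 10 library B, and *Dsel* at 0.21 (adjusted p = 0.063) without Day 10 library B. The median depth of the cells below the limit was 5448 and 6454 UMIs at Day 7 and 23651.5 and 21405 at Day 10. With only cells of at least 5000 UMIs, 4 single-gene values over all comparisons lost their call and kept their direction. That floor does not match depth between the days, and the part of depth in these differences was not tested further.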

How the results depend on the processing

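Of 249 single-gene calls, 168 stayed on the same side of the threshold with the same direction under every alternative run for them. Over 3557 values under alternatives, 241 kept their direction but lost the call and 18 reversed. With library totals alone, which move the median of all genes as given above, the reversed values were -0.0091 for *Chsy1* and -0.065 for *Ndst2* (Day 7 against Day 2, whole cultures), -0.013 for *Impad1*, -0.045 for *Ext1* and -0.046 for *Ndst1* (same days, below the limit), -0.096 for *Xylt2*, -0.029 for *Csgalnact2*, -0.13 for *Chsy1* and -0.145 for *Dse* (classes, Day 7), and -0.077 for *Dse* and -0.044 for *Sulf2* (classes, Day 10). With the limit at 1%, they were -0.047 for *Ext1*, -0.030 for *Ndst1* and -0.031 for *Hs6st2* (Day 7 against Day 2, below), 0.022 for *Hs6st2* (Day 10 against Day 7, above), 0.084 for *Chst14* (classes, Day 7), and 0.16 for *B3galt6* and 2.10 for *Hs3st6* (change of the class difference).

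Of 16 counts of called genes, those for cells above the limit were least stable. From Day 7 to Day 10 these were 13 higher and 8 lower, and DESeq2 gave 8 and 4, the limit at 1% (11830 genes tested) 4 and 2, library totals 4 lower, and leaving out cells between 0.15% and 0.6% 3 lower. The 7 class differences that fell became 4 with DESeq2 and 3 with the limit at 1%, and the 6 genes lower at Day 7 than at Day 2 in whole cultures became 13 with library totals. The cause was not tested. All other counts stayed within 1.5 times the main one. Leaving out 1 library gave 9 to 11 higher and 4 to 7 lower above the limit from Day 7 to Day 10, the 4 without Day 7 library A.

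The labels do not say whether libraries with the same replicate letter share more than the letter. With the replicate block the whole-culture counts were 29 and 6 from Day 2 to Day 7 and 10 and 15 from Day 7 to Day 10, those below the limit 31 and 6 and 15 and 15, and those above it 15 and 8. Without the library covariate (no replicate block) the class counts were 23 and 12 at Day 7 and 24 and 14 at Day 10, and the changes between days 13 and 6. Depth limits *Chst13* and *Hs3st6*, whose lowest libraries hold 5 and 15 UMIs.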
